A study of Homo sapiens with 8 samples.

Results

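The respiratory chain subunits encoded in the nucleus were compared between MDA-MB-231 cells with a control hairpin and cells with a hairpin against the integrin α3 subunit. Members were chosen by gene symbol alone: NDUF subunits of complex I, SDHA to SDHD of complex II, UQCR genes and CYC1 of complex III, and COX4 to COX8 genes of complex IV, without ATP synthase. The rule found 66 genes among 17303 genes that carried a feature with 1 symbol. They comprised 35 genes of complex I, 4 of complex II, 9 of complex III and 18 of complex IV. NDUFA4, whose product is now counted as a subunit of cytochrome c oxidase, was placed in complex IV. COX4NB, an older symbol of an endoplasmic reticulum membrane protein, and the pseudogene UQCRBP1 match the letters of the rule but are no subunits, and both were left out. At the gene level 50 members had a transcript cluster of their own symbol only, and at the exon level all 66 had such probesets, 500 in all. A further 17 clusters and 27 probesets that the annotation also assigns to another gene were left out. Of these 17 clusters, 4 were called lower, 9 were not called and 4 were not tested, where 15.3% of all tested clusters were called lower. They are not part of the member counts below.

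MDA-MB-231 is an established human breast cancer line of triple-negative, mesenchymal character. Cells had been transduced with lentivirus and stably expressed either a control short hairpin RNA (shRNA) or an α3-targeting shRNA, and both groups grew in the same serum-containing medium on standard culture plastic. Each group held 2 cultures, called biological replicates by the submitters, and their RNA was depleted of ribosomal RNA and hybridised to Affymetrix Human Exon 1.0 ST arrays. These hold several probesets per gene, placed along its exons. The 4 arrays were summarised per transcript cluster (gene level) and again per probeset (exon level), giving 8 samples, so the exon-level values are not further replicates. No rescue of α3 and no differently labelled α3 hairpin was analysed here, so loss of α3 and other effects of this hairpin or of the transduced cell populations cannot be told apart.

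The integrin α3 subunit pairs with β1 to form a receptor for laminins. The respiratory chain sits in the inner mitochondrial membrane. Complex I takes electrons from NADH and complex II from succinate, both pass them to ubiquinone, complex III passes them on to cytochrome c, and complex IV hands them to oxygen, while complexes I, III and IV pump protons for ATP synthase. Most subunits are encoded in the nucleus and imported, and a core set is encoded in mitochondrial DNA, so the chain depends on both genomes. Promoters of many nuclear subunits are known to carry sites for NRF1, for the ETS-family factor GABPA and for YY1. Many cancer cells keep respiration while also running high glycolysis.

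Promoter sequence is shown for 6 called members. NDUFA9, COX6B1 and NDUFA13 are 3 of the 4 members called lower by the median of their probesets. NDUFA6, called lower at the gene level, was taken for its match to the NRF1 letters. COX4I1 and COX7C are the members called higher. These 6 were chosen after their values, and the match in NDUFA6, were seen. NDUFA1, NDUFA3 and NDUFA10, also called lower below, are not shown. Each run holds the 250 bases before the annotated start, 5′ to 3′ along the gene's own strand, from RefSeq on GRCh38.p14, and capitals mark a match to a searched motif on either strand. They lie at chr12:4648864-4649113 (NDUFA9, plus strand), chr19:35648073-35648322 (COX6B1, plus strand), chr19:19515975-19516224 (NDUFA13, plus strand), chr22:42090773-42091022 (NDUFA6, minus strand), chr16:85799445-85799694 (COX4I1, plus strand) and chr5:86617691-86617940 (COX7C, plus strand).
NDUFA9: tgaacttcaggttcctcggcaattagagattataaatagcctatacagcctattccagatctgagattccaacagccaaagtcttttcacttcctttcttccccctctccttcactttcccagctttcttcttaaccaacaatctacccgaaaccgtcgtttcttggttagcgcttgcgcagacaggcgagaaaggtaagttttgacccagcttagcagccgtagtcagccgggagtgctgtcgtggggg
COX6B1: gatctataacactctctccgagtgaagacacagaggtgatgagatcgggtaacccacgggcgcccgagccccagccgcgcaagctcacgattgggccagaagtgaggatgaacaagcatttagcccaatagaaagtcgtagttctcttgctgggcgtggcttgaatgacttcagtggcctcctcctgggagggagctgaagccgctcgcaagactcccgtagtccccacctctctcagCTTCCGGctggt
NDUFA13: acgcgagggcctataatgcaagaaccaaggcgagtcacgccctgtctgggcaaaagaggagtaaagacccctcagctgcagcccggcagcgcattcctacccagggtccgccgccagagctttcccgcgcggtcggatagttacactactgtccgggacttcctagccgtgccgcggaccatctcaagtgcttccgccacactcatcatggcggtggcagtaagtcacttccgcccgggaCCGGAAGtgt
NDUFA6: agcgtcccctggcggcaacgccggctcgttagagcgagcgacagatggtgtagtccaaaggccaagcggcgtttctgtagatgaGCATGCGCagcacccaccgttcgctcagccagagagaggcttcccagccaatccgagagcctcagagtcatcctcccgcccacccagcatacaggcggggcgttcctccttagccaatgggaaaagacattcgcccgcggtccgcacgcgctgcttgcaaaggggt
COX4I1: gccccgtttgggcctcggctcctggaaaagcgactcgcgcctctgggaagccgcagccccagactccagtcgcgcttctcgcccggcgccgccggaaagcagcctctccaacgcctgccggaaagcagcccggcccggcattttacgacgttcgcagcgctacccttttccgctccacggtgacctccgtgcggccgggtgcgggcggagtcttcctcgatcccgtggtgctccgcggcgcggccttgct
COX7C: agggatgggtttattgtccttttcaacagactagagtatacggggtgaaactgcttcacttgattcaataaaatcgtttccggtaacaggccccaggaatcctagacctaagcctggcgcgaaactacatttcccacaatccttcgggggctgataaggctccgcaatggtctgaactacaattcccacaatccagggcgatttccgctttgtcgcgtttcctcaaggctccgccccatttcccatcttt

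The letters searched were GCATGCGC for NRF1, CCGGAAG for ETS factors including GABPA, and AAGATGGC for YY1, each on both strands. Promoters were matched for 56 of the 66 members. The NRF1 letters stood in 8 of the 56 (14.3%), against 2.81% of 27305 promoters of the same length. The ETS letters stood in 14 (25.0%), against 8.82% of all promoters. The YY1 letters stood in none of the 56, against 1.37% of all. Among the 6 promoters shown, NDUFA13 and COX6B1 hold 1 ETS match each, NDUFA6 holds 1 NRF1 match, and NDUFA9, COX4I1 and COX7C hold no match to these letters. Of the called members not shown, NDUFA1 holds 1 ETS match, and NDUFA3 and NDUFA10 hold no match. Matches are a description of the letters in this window only.

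All values are PLIER intensities, a linear summary of probe brightness. Differences are knockdown minus control on the log2(intensity + 16) scale, which understates changes of dim genes. They were tested with limma over all tested features, and a call is a Benjamini-Hochberg adjusted p under 0.05. Intensities of different genes come from different probes and were not compared with each other. In bulk RNA, fewer cells of a type and less RNA per cell cannot be told apart. The target ITGA3 measured 3480 and 3529 with the control hairpin and 619 and 644 with the α3 hairpin (log2 difference -2.44). Array medians lay between 168 and 186 at the gene level, and the median difference over all 13207 tested clusters was -0.055. Calls were unevenly split over the whole array, with 15.3% of tested clusters called lower and 5.99% called higher. The share of calls that were lower was 71.8% as deposited, 55.4% after quantile normalization and 47.9% after centring each array on its median. Markers of the line's mesenchymal character were bright, VIM at 4347 to 5241 and CD44 at 1683 to 2142. The estrogen and progesterone receptor genes ESR1 and PGR stayed at or below 78.95, under the intensity filter, while the luminal keratin gene KRT19 was bright at 2342 to 4204. ERBB2 of the same luminal list lay between 332 and 480, and GATA3, FOXA1 and TFF3 also passed the filter. Of the leukocyte list PTPRC stayed at or below 27.4, CD14 lay between 205 and 250.5, and CD68, a lysosomal gene, between 1450 and 1871.

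At the gene level, 45 of the 50 members passed the filter on dim features. Of these, 5 were called lower, 1 was called higher and 39 were not called, which is 5 and 1 of 45 against 15.3% and 5.99% of all tested clusters. The lower calls were NDUFA9, NDUFA10, NDUFA6 and NDUFA1 of complex I and COX6B1 of complex IV, and the higher call was COX4I1 of complex IV. The median difference over the 45 members was -0.11, against -0.055 over all tested clusters. It was -0.066 after quantile normalization and -0.011 after centring, with 5 lower and 2 higher calls and 3 lower and 2 higher calls respectively. Both knockdown arrays lay below both controls in 23 of the 45 members and above both in 5, where the shares of all tested clusters were 39.6% and 22.3%. Counting the sign alone, 29 of the 45 differences were negative, and 59.4% of all clusters were. The count of lower calls was 6 without control 1, and 2 in each case without control 2, without knockdown 1 or without knockdown 2. The higher call was lost without control 1 or knockdown 2. With no filter on dim features 4 members were lower and 0 higher. The 4 were NDUFA9, NDUFA10, COX6B1 and COX7B2, a dim gene that the main fit did not test.

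**Figure D1:**
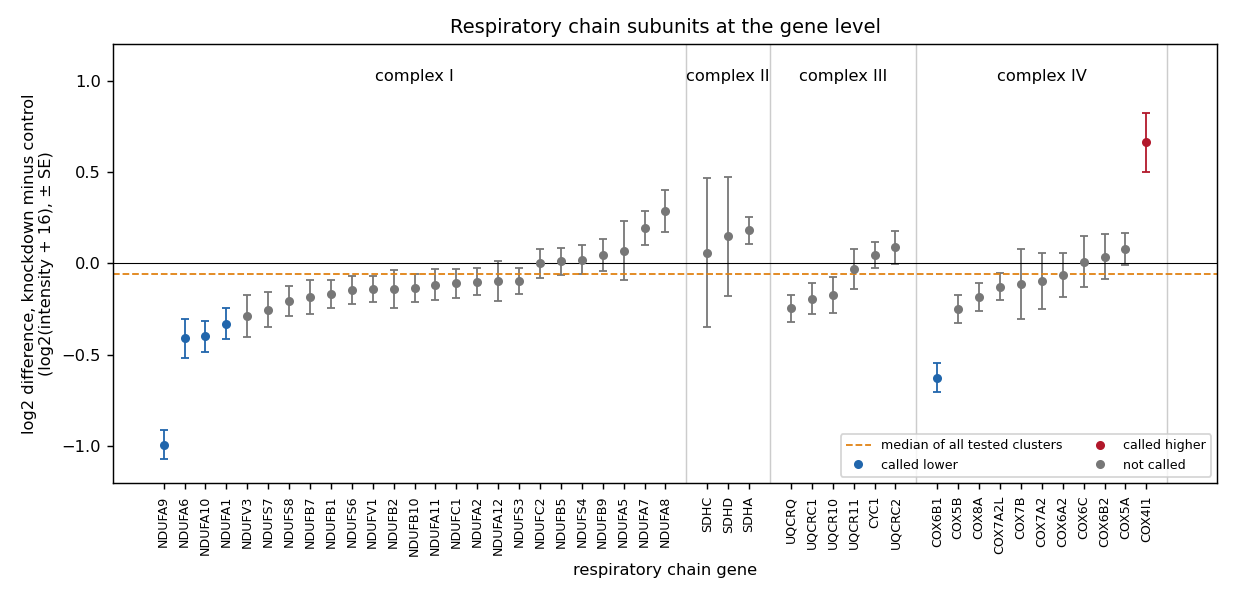
Log2 difference, knockdown minus control, on the log2(intensity + 16) scale with its standard error (vertical axis), for the 45 tested members grouped by complex (horizontal axis), with the median of all tested clusters as a dashed line. NDUFA9 stood lowest at -0.99 and COX4I1 highest at 0.66, and most other members lay between -0.3 and 0.3.

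Complex I had 4 lower calls among 25 tested members, a share close to the 15.3% of all tested clusters. NDUFA9, an accessory subunit at the junction of the matrix arm and the membrane arm, measured 2178 and 2368 in control cells and 1104 and 1167 in knockdown cells. Both knockdown values lay far below both controls, and each pair was close. The log2 difference was -0.99 ± 0.081 (SE), or 1.99-fold lower (adjusted p = 0.00177). NDUFA9 was called lower under every one of the 11 alternative settings run for it at the gene level, with differences from -1.05 to -0.89. NDUFA10, an accessory subunit of the proximal membrane arm, measured 847 and 874 on the control arrays and 618 and 682 after knockdown. Its difference was -0.40 ± 0.086 (SE), or 1.32-fold (adjusted p = 0.0237), with no overlap. That call was lost without control 2 (adjusted p = 0.0587), knockdown 1 (0.160) or knockdown 2 (0.0770).

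NDUFA6, a small accessory subunit of the matrix arm that binds the acyl carrier protein, measured 1372 and 1645 with the control hairpin and 1164 and 1091 with the α3 hairpin. The groups were apart, but the controls differed from each other by more than the knockdown arrays did (log2 difference -0.41 ± 0.106, adjusted p = 0.0398). NDUFA1, a single-pass subunit of the membrane arm that is encoded on the X chromosome, measured 918 and 989 in control cells and 735 and 776 in knockdown cells. Its difference was -0.33 ± 0.083 (adjusted p = 0.0372), again with no overlap. After centring, NDUFA6 and NDUFA1 missed the threshold (adjusted p = 0.0525 and 0.0697), as they did with no filter (0.0859 and 0.0679), with no intensity trend (0.0589 and 0.0558), and without control 2 (0.0848 and 0.0866), knockdown 1 (0.0946 and 0.213) or knockdown 2 (0.182 and 0.144).

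The remaining tested complex I genes were not called. Over the 25 tested members of complex I the median difference was -0.13 (-0.037 after centring). Both knockdown arrays lay below both controls in 16 and above them in 2, where the shares of all tested clusters were 39.6% and 22.3%. The 2 members above both controls were NDUFA7 and NDUFA8. NDUFA8, an accessory subunit held by disulfide bonds on the intermembrane-space side, measured 617.5 and 737 on the control arrays and 777.5 and 882 after knockdown (log2 difference 0.29, adjusted p = 0.129). It passed the threshold as higher after quantile normalization (adjusted p = 0.0425) and centring (0.0261). None of the core subunits of the matrix arm with a tested value was called, and their differences had both signs. NDUFV1, which binds NADH, measured 2433 and 2430 with the control hairpin and 2190 and 2221 with the α3 hairpin (log2 difference -0.14, adjusted p = 0.214). NDUFS3, NDUFS7 and NDUFS8 of the quinone-side arm differed by -0.096, -0.25 and -0.20, with adjusted p from 0.119 to 0.401. With exon-level values only, NDUFS1 and NDUFV2, which hold iron-sulfur clusters, had median probesets at 0.21 (adjusted p = 0.267) and 0.33 (adjusted p = 0.404).

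**Figure D2:**
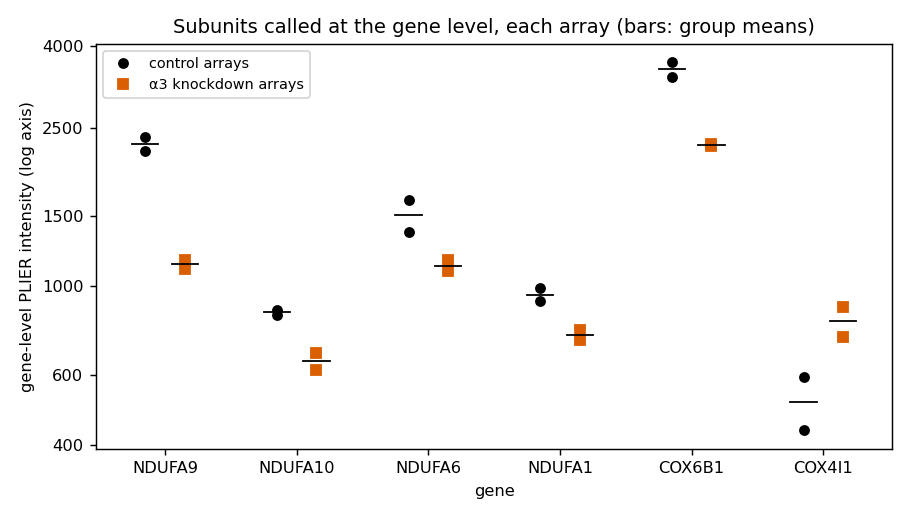
Gene-level PLIER intensity (vertical log axis) of each array for the 6 called members (horizontal axis), with circles for the 2 control arrays, squares for the 2 α3 knockdown arrays and short bars for group means. The groups do not overlap in any of the 6, and COX4I1 alone is higher in the knockdown arrays.

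Complex II, the succinate dehydrogenase that also works in the citric acid cycle, had no limma call among its 3 tested members. Over all tested clusters 15.3% were called lower and 5.99% higher. Of the 3 members 1, SDHA, had an unadjusted p under 0.05. None of the 29 tested probesets of complex II was called either, against 3.25% lower and 1.33% higher of all tested probesets. Of the 29, 6 were at an unadjusted p under 0.05. Such p-values were common over all tested clusters, as the limma p of SDHA, 0.0482, became 0.136 after adjustment. The share of all clusters or probesets with an unadjusted p under 0.05 was not counted. Counts of such p-values, here and for complex III, the distal arm and the lists below, are therefore not read as near calls. SDHA, the flavoprotein that oxidises succinate, measured 2683 and 2585 in control cells and 2931 and 3049 in knockdown cells. It was higher in both knockdown arrays without passing the test (log2 difference 0.18 ± 0.074, adjusted p = 0.136). SDHC and SDHD, the membrane anchors, were each represented at the gene level by the values of 1 dim probeset, equal within 0.1%. SDHC measured 149 and 298 on the control arrays and 149 and 324 after knockdown, so the arrays within each group differed far more than the groups (log2 difference 0.058 ± 0.41). The median of the 6 tested SDHC probesets was brighter and showed another direction, at 1780 and 1725 with the control hairpin and 1306 and 1406 with the α3 hairpin (log2 difference -0.37 ± 0.10, adjusted p = 0.0706). SDHD measured 79.5 and 128 in control cells and 79.1 and 161 in knockdown cells, and the median of its probesets differed by -0.15 (adjusted p = 0.505). The median difference of complex II was therefore 0.15 over gene-level clusters and -0.10 over medians of probesets.

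Complex III, which passes electrons from ubiquinol to cytochrome c, had no gene-level limma call among 6 tested members (1, UQCRQ, at an unadjusted p under 0.05). Of all tested clusters 15.3% were called lower and 5.99% higher. The median difference of complex III was -0.10 (-0.0027 after centring). UQCRQ, a small subunit that contacts cytochrome b, measured 2237 and 2264 on the control arrays and 1935 and 1855 after knockdown (log2 difference -0.25 ± 0.073, adjusted p = 0.0591). UQCRC1, a core protein on the matrix side, measured 1885 and 1704 with the control hairpin and 1522 and 1613 with the α3 hairpin (-0.19 ± 0.085, adjusted p = 0.163). UQCR10 measured 2545 and 2463 in control cells and 2407 and 2047 in knockdown cells (-0.17 ± 0.097, adjusted p = 0.261). These 3 members had lower values in both knockdown arrays without passing the test. CYC1, which holds the heme that reduces cytochrome c, measured 3379 and 3369 on the control arrays and 3461 and 3499 after knockdown (log2 difference 0.044, adjusted p = 0.716).

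In complex IV, 11 of 15 members with a cluster were tested. Of these, 1 was called lower and 1 higher, against 15.3% and 5.99% of all tested clusters. Their median difference was -0.097 (0.0014 after centring). COX6B1, a subunit on the intermembrane-space side that helps hold the dimer, measured 3350 and 3640 with the control hairpin and 2277 and 2243 with the α3 hairpin. The groups were well apart and the knockdown arrays close to each other (log2 difference -0.62 ± 0.079, 1.54-fold, adjusted p = 0.00519). At the gene level COX6B1 was called lower in all 11 alternative settings. COX4I1, the ubiquitous isoform of the largest nuclear-encoded subunit, which takes part in the enzyme's regulation by ATP, moved the other way. It measured 436 and 593 in control cells and 745 and 890.2 in knockdown cells (log2 difference 0.66 ± 0.161, 1.58-fold, adjusted p = 0.0340). Its groups did not overlap, but the arrays of a group differed more than for COX6B1, and the call was lost with no filter (adjusted p = 0.0827), without control 1 (0.0702) or without knockdown 2 (0.146). COX5B, which binds zinc on the matrix side, measured 1371 and 1468 on the control arrays and 1190 and 1195 after knockdown and was not called (-0.25 ± 0.076, adjusted p = 0.0672).

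Several complex IV subunits exist as a broadly expressed and a tissue-restricted isoform. No restricted isoform was called in the main fit, where COX4I2, COX7A1, COX7B2 and COX8C were not tested at the gene level. COX4I2, the lung-type and hypoxia-linked partner of COX4I1, measured 45.1 and 49.7 with the control hairpin and 44.5 and 87.4 with the α3 hairpin, below the filter. COX6B2, the testis form of COX6B1, was dim and overlapped between groups at 127 and 119 in control cells and 135 and 119 in knockdown cells. COX6A2, the heart and muscle form, measured 256 and 276 on the control arrays and 279 and 231 after knockdown, also overlapping. Its partner COX6A1 had exon-level probesets only, with a median at 5004 and 4864 with the control hairpin and 5039 and 4526 with the α3 hairpin.

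COX7A1, the muscle form of COX7A2, stayed between 58.4 and 66.5 in all 4 arrays, below the filter. COX7A2 itself measured 1194 and 1309 in control cells and 991 and 1377 in knockdown cells, so its knockdown arrays spanned the controls. The COX7A2 cluster equals 1 of its probesets within 0.1%. COX7A2L, a related protein that takes part in supercomplex assembly, measured 2511 and 2457 on the control arrays and 2234 and 2313 after knockdown (log2 difference -0.13, adjusted p = 0.265). COX7B overlapped between groups at 1453 and 2181 with the control hairpin and 1792 and 1515 with the α3 hairpin. Its testis form COX7B2 was dim throughout, at 72.2 and 67.6 in control cells and 7.59 and 14.1 in knockdown cells, and was not tested. With no filter COX7B2 was called lower by limma at the gene level (log2 difference -1.69, adjusted p = 0.0123). The 1 tested probeset of COX7B2 overlapped between groups, at 99.3 and 98.9 on the control arrays and 106 and 82.4 after knockdown. COX8A measured 2593 and 2509 with the control hairpin and 2323 and 2173 with the α3 hairpin (-0.18, adjusted p = 0.147). The testis form COX8C stayed at 20.6 to 33.2, below the filter.

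At the exon level, 428 of the 500 member probesets were tested, and 24 were called lower, 4 higher and 400 not called. Of all 172397 tested probesets, 3.25% were called lower and 1.33% higher. The lower calls fell to complex I with 21, complex IV with 2 and complex III with 1, and the 4 higher calls all belonged to complex IV. They came from 9 members, and 11 of the 21 in complex I belonged to NDUFA9 alone. Probesets of 1 gene share its transcripts and arrays and are not independent. The lower count was 16 without control 1, 13 without control 2, 15 without knockdown 1 and 14 without knockdown 2, and the higher count 0, 7, 9 and 0. With no filter no member probeset was called in either direction, and with no intensity trend 2 were called lower and 0 higher. Those 2 settings also took the calls over all probesets from 5599 lower to 120 and 1314.

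The median tested probeset of each gene on each array gave a second per-gene value, available for 64 of the 66 members and 15106 genes. It includes 16 members that have exon-level values only. By this value NDUFA9, NDUFA3, NDUFA13 and COX6B1 were called lower and COX7C higher, while 5.75% of all genes were called lower and 2.12% higher. After quantile normalization or centring COX4I1 was called higher as well. The count of lower members was 1 without control 1, 1 without control 2, 2 without knockdown 1 and 2 without knockdown 2. The count of higher members was 0, 0, 3 and 0 in the same order. Of the 44 members with both per-gene values, 36 had the same sign in both, and no called member had opposite signs.

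**Figure D3:**
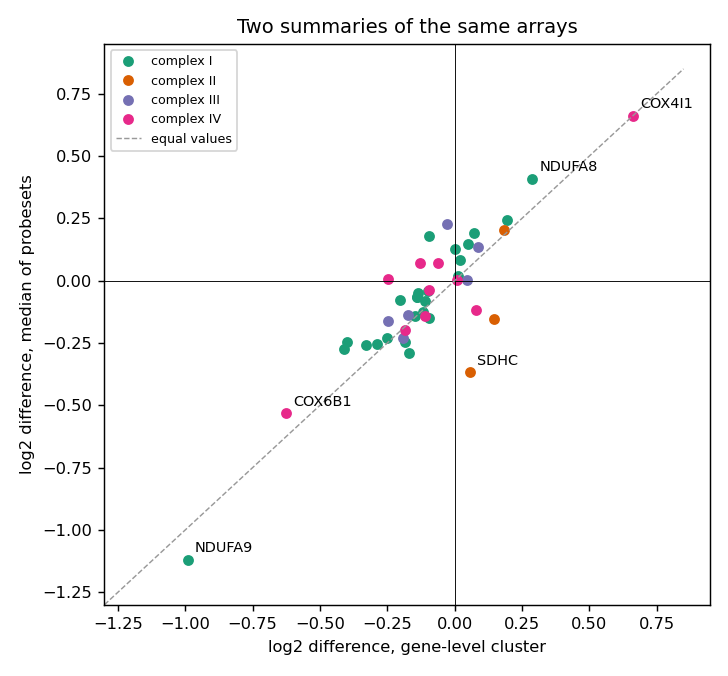
Log2 difference of the gene-level cluster (horizontal axis) against that of the median of the gene's probesets (vertical axis) for the 44 members with both, coloured by complex, with equal values on the dashed line. NDUFA9 and COX6B1 stand at the lower left and COX4I1 at the upper right of both, and SDHC, whose cluster equals 1 dim probeset, stands off the line.

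NDUFA9 was lower along its whole set of probesets. All 13 tested probesets had a negative difference, from -1.26 to -0.73, and 11 were called lower. Probeset 3401900 had the largest, at 1739 and 1802 in control cells and 718 and 743 in knockdown cells (log2 difference -1.26 ± 0.13, adjusted p = 0.00215). The 2 probesets not called, 3401892 and 3401898, were the dimmest tested and also lower (-0.83 and -0.73). The median probeset of NDUFA9 measured 1886 and 1865 on the control arrays and 849 and 861 after knockdown (-1.12 ± 0.10, adjusted p = 0.00176), and this call held in all 11 alternatives.

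Both NDUFA3 and NDUFA13 had probesets but no gene-level cluster of their own symbol. NDUFA3, a small membrane-arm subunit, had a median probeset at 2176 and 2201 with the control hairpin and 1374 and 1365 with the α3 hairpin. Its groups were well apart (log2 difference -0.67 ± 0.096, adjusted p = 0.00912), all 5 tested probesets were negative and 3 were called lower. The call missed the threshold without control 1 (adjusted p = 0.0578) or control 2 (0.0640). NDUFA13, also named GRIM-19 for its link to interferon and retinoid-induced cell death, measured 589.7 and 766 in control cells and 409 and 394 in knockdown cells (-0.72 ± 0.15, adjusted p = 0.0318). Of its 8 tested probesets 6 lay between -0.99 and -0.69, 4 of them called, while a dim one and probeset 3825837 were at 0.22 and 0.10. The NDUFA13 call was lost without each of the 4 arrays in turn (adjusted p from 0.0532 to 0.126), with no intensity trend (0.0592) and with the stricter filter (0.0537).

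COX6B1 had 6 tested probesets, all negative, of which 3830652 and 3830660 were called lower (-0.84 and -0.72). Its median probeset measured 1285 and 1470 on the control arrays and 949.6 and 942 after knockdown (-0.53 ± 0.11, adjusted p = 0.0330). That call, unlike the one at the gene level, was lost without each of the 4 arrays in turn (adjusted p from 0.0707 to 0.135) and with no intensity trend (0.0800). NDUFA10 had 15 tested probesets, all negative with a median of -0.42, and 2606613 and 2606618 were called lower (-0.67 and -0.56). NDUFA6 had 9 of 10 negative and 1 called, 3962275 (-0.58, adjusted p = 0.0409). NDUFA1 had 4 of 4 negative and none called. By their median probeset these 3 genes were not called, with differences of -0.25 for NDUFA10 (adjusted p = 0.344), -0.27 for NDUFA6 (0.503) and -0.26 for NDUFA1 (0.213). UQCRFS1, the Rieske iron-sulfur protein of complex III, had 6 of 6 negative and 1 called, 3857696, at 1659 and 1701 with the control hairpin and 1125 and 1061 with the α3 hairpin (-0.61, adjusted p = 0.0345). NDUFA4, with exon-level values only, had 7 of 7 negative, and its median probeset went from 961 and 1029 to 724 and 759 without passing the test (-0.42 ± 0.11, adjusted p = 0.0663).

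The higher calls came from COX4I1 and COX7C. COX4I1 had 9 tested probesets, 8 with a positive difference, and 3672463 and 3672469 were called higher (0.76 each). Probeset 3672469 measured 1061 and 1209 in control cells and 1914 and 1950 in knockdown cells. The 3 probesets at -0.0024, 0.016 and 0.079 were among its dimmest tested, none above 202 on any array, while its 5 probesets with a control mean over 500 lay between 0.60 and 0.76. Probeset 3672474 had the largest difference, 1.15, but ranged from 71.6 to 741 over the arrays and was not called. COX7C, a small ubiquitous subunit of complex IV, had 4 of 4 positive with 2 called higher, 2818959 and 2818960. Its median probeset measured 396 and 481 on the control arrays and 680.4 and 773 after knockdown (0.71 ± 0.14, adjusted p = 0.0275). The COX7C call missed the threshold without control 1 (adjusted p = 0.111), control 2 (0.0649) or knockdown 2 (0.120), and with no intensity trend (0.0552).

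**Figure D4:**
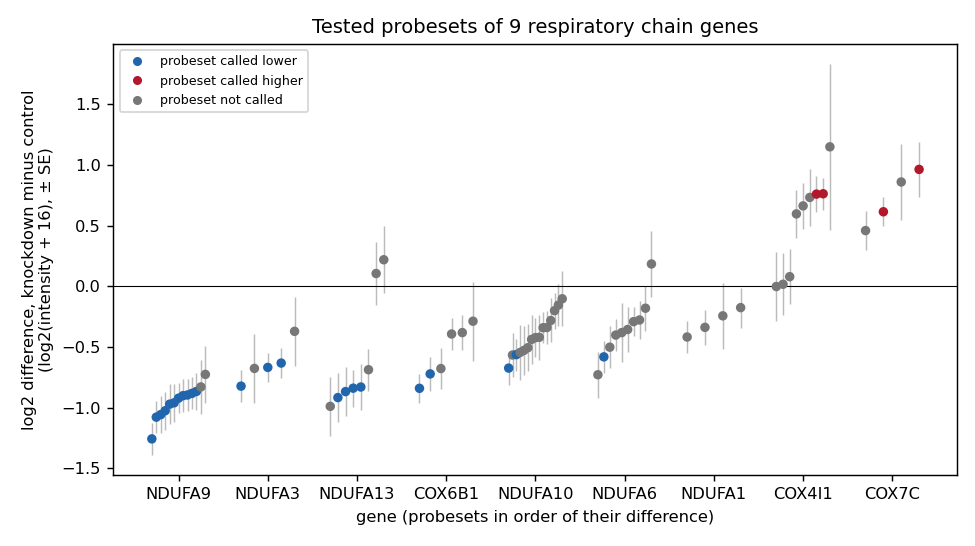
Log2 difference with its standard error (vertical axis, log2(intensity + 16) scale) of every tested probeset of 9 members (horizontal axis, probesets in order of their difference). All 13 NDUFA9 probesets lie between -1.26 and -0.73, and the COX4I1 and COX7C probesets lie at or above 0 apart from 1 at -0.0024.

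Among the 58 members with 3 or more tested probesets, 16 had every probeset negative, 3 had every probeset positive (NDUFA7, NDUFB6 and COX7C) and 39 had both signs. Over all tested member probesets 272 differences were negative and 156 positive, and 56.3% of all tested probesets were negative. In the test of exon usage, which compares a probeset with the average of its gene's remaining probesets, 0 of 419 member probesets were called by limma. At an unadjusted p under 0.05 there were 9, or 2.15%, against 6.06% of all probesets tested. Of all 155391 probesets in that test 0.0444% were called.

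Complex I was also read by position, in the NADH-oxidising (N), quinone-reducing (Q), proximal membrane and distal membrane parts, grouped after the values were seen. The gene-level lower calls, to be read against 15.3% of all clusters, were 1 of 8 in the N part (NDUFA6), 1 of 5 in the Q part (NDUFA9) and 2 of 6 in the proximal arm (NDUFA1 and NDUFA10). In the distal membrane arm, made up of NDUFB subunits, none of 6 genes was called by limma at the gene level, none of 11 by the median probeset and none of 66 probesets, where 15.3%, 5.75% and 3.25% of all features were called lower. At an unadjusted p under 0.05 there were 0 of the 6 genes and 12 of the 66 probesets, and the share of all features at that threshold was not counted. The median gene-level difference of the distal arm, -0.14, stood beside -0.12 in the N part, -0.20 in the Q part and -0.11 in the proximal arm. No test between these parts was made.

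Genes that work beside the chain were counted from lists of each pathway. Their counts stand beside 15.3% of all tested clusters called lower and 5.99% called higher. Among 13 tested genes listed for ATP synthase, which uses the proton gradient, 2 were called lower and none higher, a share close to that of all clusters. Their median was -0.14 against -0.055 over all clusters. ATP5F1D, the delta subunit of its rotor, went from 1893 and 1760 to 1312 and 1189 (log2 difference -0.54, adjusted p = 0.0101). ATP5PO, the stalk subunit that confers oligomycin sensitivity, went from 1179 and 1438 to 946 and 963 (-0.44, adjusted p = 0.0345). By their median probeset neither was called (adjusted p = 0.0836 and 0.345). ATP5IF1 of the same list was called lower by its median probeset (-0.56, adjusted p = 0.041) but not at the gene level (-0.050, adjusted p = 0.713). In the citric acid cycle 1 of 13 tested genes was called: CS, citrate synthase, measured 2082 and 2003 with the control hairpin and 1405 and 1402 with the α3 hairpin (-0.54 ± 0.072, adjusted p = 0.00624). The 13 mtDNA-encoded subunits had no row of 1 symbol in the tables used here and are not analysed.

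Assembly factors gave few calls in either direction, to be read against 15.3% of all tested clusters called lower and 5.99% called higher. Of 15 tested factors of complex I, NDUFAF4 was called lower (521 and 509 to 421 and 407, adjusted p = 0.0478), and after centring NDUFAF4 was not called while NUBPL and TMEM186 were called higher. No factor of complex II (2 tested) or complex III (6 tested) was called by limma, with 0 and 2 at an unadjusted p under 0.05. Of 12 tested factors of complex IV, COX20 was called lower (427 and 443 to 331 and 318, adjusted p = 0.0240). LRPPRC, which stabilises mitochondrial mRNAs, was called higher (1970 and 2063 to 2737 and 2767, log2 difference 0.45, adjusted p = 0.0107), as was SCO1, a copper chaperone of complex IV (619 and 725.5 to 898 and 908, adjusted p = 0.0298). Among 15 tested electron carriers and ubiquinone genes COQ4 was called lower (414 and 426 to 323 and 323, adjusted p = 0.0318) and ETFDH, which feeds electrons from fatty acid oxidation into ubiquinone, higher (180.1 and 188 to 254 and 291, adjusted p = 0.0227). After quantile normalization or centring COQ4 was not called (adjusted p = 0.0559 and 0.0574) and COA7, a complex IV factor, was called higher. COX20 and COQ4 were not called by their median probeset (-0.030, adjusted p = 0.942, and -0.17, adjusted p = 0.547). NDUFAB1 and COXFA4L2 (older symbol NDUFA4L2), 2 further genes outside the symbol rule, were not called. COXFA4L2 is also counted among the hypoxia-linked genes below.

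Regulators of mitochondrial biogenesis gave no limma call among 9 tested genes, and 1, TWNK, had an unadjusted p under 0.05. NRF1 measured 241 and 253 in control cells and 248 and 276.5 in knockdown cells (log2 difference 0.078, adjusted p = 0.654). TFAM, which packages and transcribes mitochondrial DNA, measured 1874 and 2170 on the control arrays and 2094 and 1964 after knockdown (0.0083, adjusted p = 0.967). After centring, TWNK and SSBP1, which act in mitochondrial DNA replication, were called higher. Among 6 tested hypoxia-linked mitochondrial genes 3 were called higher and none lower, against 5.99% and 15.3% of all tested clusters. BNIP3, a mitophagy receptor, went from 1425 and 1350 to 2489 and 3230 (1.02 ± 0.13, adjusted p = 0.00519). PDK1, which inhibits pyruvate dehydrogenase, went from 364 and 363 to 545 and 560.2 (0.58, adjusted p = 0.00731). LONP1, a matrix protease, went from 406 and 511 to 624 and 735 (0.55, adjusted p = 0.0355). Of the 12 genes called in these pathway lists, from ATP synthase to the hypoxia-linked genes, BNIP3 and CS kept their call with each of the 4 arrays left out in turn, and the other 10 lost it in at least 1 case (highest adjusted p from 0.0639 to 0.293). By the median probeset 4 of the 12 were called: BNIP3, CS, ETFDH and LRPPRC.

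Markers of cell identity also differed between the groups, and their part in the subunit differences was not tested. Calls among them stand beside 15.3% of all tested clusters called lower and 5.99% called higher. Of 5 tested mesenchymal genes AXL was called lower, and the list's summed intensity was 20970 and 21330 with the control hairpin and 17880 and 17560 with the α3 hairpin. Such sums use the values as deposited and weigh bright genes most. The other 4 mesenchymal genes were not called, and after centring their differences lay from -0.17 (MSN) to -0.048 (CAV1). Of 5 tested luminal genes KRT19 and ERBB2 were called lower and TFF3 higher, with a summed intensity of 4839 and 5254 in control cells and 3504 and 3483 in knockdown cells. KRT19 carried that fall, and the other 7 luminal genes with a cluster summed to 1027 and 1050 in the controls and to 1147 and 1141 under knockdown. CDH1 (E-cadherin), below the gene-level filter, measured 25.4 and 28.8 on the control arrays and 177 and 168 after knockdown, and CDH1 was called higher by its median probeset (log2 difference 1.51, adjusted p = 0.00294). The fibroblast list had 1 tested gene and no call (summed intensity 341 to 373), with DCN and LUM at or below 34.7. The leukocyte list had CD68 called lower among 3 tested (summed intensity 1900 to 2277), and CD68 was not called after centring.

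Genes beside the 9 members with the calls above were read in RefSeq gene order, 5 on each side, a step added after the values were seen. Their counts stand beside 15.3% of all clusters called lower and 5.99% higher. Beside COX6B1, 3 of 5 neighbours with a tested cluster were called lower (TMEM147, RBM42 and U2AF1L4) and the median neighbour differed by -0.45, against -0.62 for COX6B1 itself. Beside NDUFA6, 3 of 5 were called lower (CENPM, POLDIP3 and CYB5R3), with a median of -0.41 against -0.41. Beside NDUFA9, 1 of 6 was called lower (DYRK4) and the median was -0.13, well short of the -0.99 of NDUFA9. None of 8 was called beside NDUFA10. Beside COX7C, 2 of 8 were called higher (EDIL3 and MEF2C) and 1 lower (CCNH), with a median of 0.28. Beside COX4I1, 1 of 10 was called, C16orf74, and it was lower. Beside NDUFA1, NDUFA3 and NDUFA13 the counts were 1 of 6, 1 of 2 and 1 of 7, all lower. By the median probeset, available for all 10 neighbours of each member, fewer were called: 2 beside COX6B1 (median difference -0.43), 1 beside NDUFA6 (-0.27), 1 beside NDUFA9 (-0.028) and none beside the other 6 members, where 5.75% of all genes were called lower and 2.12% higher.

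Many respiratory chain genes have processed pseudogenes, near-identical copies whose sequence an array probe can share. RefSeq names 149 pseudogenes after 37 of the 66 members, with 18 for COX6C, 7 for COX6B1, 6 for NDUFA3, 4 for COX7C, 2 for COX4I1 and 1 for NDUFA9. Values of members with such copies are uncertain to that extent, and how much signal the copies gave was not tested.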

How the data were processed

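The deposited values were PLIER intensities on a linear scale, made by the authors with Affymetrix Expression Console from core gene and core exon probesets, per the labels. The design text credits Affymetrix's Exon Array Computational Tool as well. How background was corrected, how arrays were scaled to each other and which software versions ran is not given in the sources used here. Groups and replicate numbers came from the sample titles. Depth does not apply to arrays, and the 4 arrays limit the precision.

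Probesets and clusters were named through the platform annotation, with symbols updated through RefSeq gene names (GRCh38). Values were tested as log2(intensity + 16) after leaving out the lower 40% by mean over the 4 arrays, with limma 3.58.1 in R 4.3.3 (lmFit, eBayes with trend, group only, 2 residual degrees of freedom, two-sided), the R package data.table (version 1.17.8) and Benjamini-Hochberg adjustment over all tested features at 0.05. A gene with several clusters is represented by its brightest. Exon usage was tested the same way in genes with at least 3 tested probesets. Plots used matplotlib 3.10.9 in Python 3.11.15. The gene-level fit, the exon-level fit and the exon usage test were tested on simulated data. The fit of the median probeset per gene, the alternatives and the counts of neighbours, positions, pseudogenes and motifs were not.

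Values are printed for members called at the gene level, the 3 smallest p of each complex, isoform pairs, and up to 3 called genes per list. NDUFA4, NDUFA8, SDHC's probesets, neighbours and further members were singled out after their values were seen. The members and lists were chosen with earlier results of these data known. Alternatives were an offset of 1, no filter, the lower 60% left out, quantile normalization, median centring, no intensity trend, a replicate block and leaving out each array.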

Additional observations from a re-analysis of the deposited data

How the results depend on the processing

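None of the 11 called per-gene values of members (6 gene-level clusters and 5 medians of probesets) changed direction under the alternatives run. With the intensity offset of 1 and after quantile normalization all 11 kept their call, while 7 of 11 missed the threshold without control 2 and 7 of 11 without knockdown 2. These fits have fewer arrays. Among members at the gene level, 3 were lower after median centring and 3 with no intensity trend, against 5. The higher members, against 1, were 0 with no filter, 2 after quantile normalization and 2 after centring. Over all clusters the higher calls, against 791, were 485 with no filter, 1354 after quantile normalization and 1586 after centring. With no filter, member probesets called lower and higher were 0 and 0, and all probesets 120 and 43. With no intensity trend they were 2 and 0, and 1314 and 379. Members by median probeset were 7 lower with no filter, 2 lower and 0 higher with no intensity trend, and 2 higher with the lower 60% left out, after quantile normalization or after centring. The cause was not tested. Probesets called for usage over the whole array, against 69, were 43 with an offset of 1, 0 with no filter, 24 with the lower 60% left out and 22 with no intensity trend, and no member probeset was called in any of these.

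Leaving out each array in turn gave 2 to 6 members lower and 0 to 1 higher at the gene level, with 632 to 1906 and 166 to 909 over all clusters. Member probesets ranged from 13 to 16 lower and 0 to 9 higher, and all probesets from 2161 to 3257 and from 753 to 2110. Members by median probeset ranged from 1 to 2 lower and 0 to 3 higher, and usage calls over all probesets from 31 to 189. These fits give a group with 1 array left the spread of the other group.

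Replicate numbers are shared between the groups, but nothing in the labels pairs the cultures. Deviations of same-numbered arrays from their group mean correlated at 0.29, a correlation taken over features. With 2 arrays per group the deviations within a group are mirror images, so both pairs give the same value. It does not establish a pairing, and a shared replicate effect was not tested further. With the replicate block, the gene-level comparison gave 6 members lower and 2 higher (1324 higher over all clusters) and the exon-level comparison 57 and 17 member probesets (18202 and 10755 of all). By median probeset 2 members were higher with the replicate block, and 397 probesets were called for usage. UQCRQ (adjusted p = 0.0496) and NDUFA8 (0.0323) were the members added at the gene level.

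Features with a mean intensity below 107 at the gene level or 96.4 at the exon level were not tested. This left out COX4I2, COX7A1, COX7B2, COX8C and NDUFB3 at the gene level. The NDUFB3 cluster equals 1 of its probesets within 0.1%. Its median tested probeset was brighter, from 308 to 483 over the arrays, and was not called.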
